A study of Mus musculus with 122 samples.

Results

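The regions described here are 941 promoter sites bound by transgenic CTCF and not by transgenic CTCFL in mouse embryonic stem cells. A site is a region in which both replicates of the FLAG ChIP-seq of CTCF in IAA and Dox (ID) have a peak, on chromosomes 1 to 19 and X, with overlapping peaks merged. Of 30317 such CTCF sites, those overlapping by at least 1 bp a site of CTCFL in Dox alone (D) were set aside, of which there were 22294 in all, and the site middle had to lie within 1 kb of a GENCODE vM21 start site (GRCm38). The members were chosen by the peaks of these 4 libraries, so their peak strength and the missing CTCFL D site are given as description and not as results. The RNA, the other ChIP-seq libraries, the chromatin domains and the DNA sequence did not enter the choice.

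The series holds 122 samples, of which 38 are RNA-seq, 32 FLAG ChIP-seq, 16 RAD21 ChIP-seq and 26 Hi-C. All cells descend from the line E14Tg2a (129/Ola, XY) and carry CTCF-AID, a CTCF that auxin (IAA) targets for degradation, with Tir1 and a FLAG and mRuby 2 tagged transgene at Tigre that doxycycline (Dox) switches on. Each transgene line is a clone, so a clone and its transgene cannot be told apart. The groups of the CTCF line are untreated cells (U, 2 RNA libraries), IAA at 500 µM (I, 3 libraries), Dox at 1 µg/ml (D, 3 libraries) and both agents (ID, 3 libraries), all cultured without feeders in serum with LIF and the inhibitors CHIR99021 and PD0325901. The sample labels give 24 h of treatment, whereas both the protocol text and the study's methods state 2 days for these assays. The labels of the CLL and LLC ChIP-seq, and of the ChIP-seq after mock or RNase treatment, give that longer time. LCL is a transgene with the zinc fingers of CTCF between the ends of CTCFL, and CLC one with the zinc fingers of CTCFL between the ends of CTCF. In CLL only the N terminus comes from CTCF, and in LLC only the C terminus.

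CTCF is a zinc finger protein that binds a long asymmetric DNA motif, and cohesin moving along chromatin is halted at CTCF according to the direction of that motif. Most CTCF sites lie away from genes, but a part lies at promoters, where CTCF is known for bringing distant enhancers to a start site, as at the clustered protocadherin genes. CTCFL, also called BORIS, is its testis paralog with very similar zinc fingers, and it is known for binding near CpG-rich promoters.

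The site sequences below carry the features to which the RNA comparisons return. Each is given on the strand on which the CTCF core motif reads, from GRCm38, with the 14 bases of the best match in capitals. Matches of genes named as lower in I than U are shown first.
Mob3b, chr4:35157491-35157520, minus strand, gene on minus: agagaaggCCACCAGGGGACTCcgctctga
Tmem163, chr1:127679959-127680058, minus strand, gene on minus: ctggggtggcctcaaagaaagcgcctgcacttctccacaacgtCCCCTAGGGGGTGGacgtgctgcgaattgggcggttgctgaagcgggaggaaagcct
Col27a1, chr4:63216133-63216162, plus strand, gene on plus: cagagtggCAGGCAGGGGGCAGgggccgga
Wfdc10, chr2:164656013-164656042, plus strand, gene on plus: tgatttggCCAGCAGAGGCAGTagagaggc

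All 4 of these matches lie on the strand of the gene. Their scores were 13.3, 10.6, 11.6 and 9.99, where a match needs more than 9.777 and a stricter limit is 13.78. The next set belongs to genes named as higher in I than U, of which Slc25a45 has its match in a UTR.
Slc25a45, chr19:5878183-5878212, minus strand, gene on plus: gaacgtggCCACGAGGTGGCAGtcccaggc
Upk2, chr9:44454268-44454367, plus strand, gene on minus: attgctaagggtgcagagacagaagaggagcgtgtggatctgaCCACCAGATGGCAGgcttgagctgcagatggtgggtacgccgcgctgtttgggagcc
Rufy4, chr1:74125370-74125399, minus strand, gene on plus: gcatgaggCCAGTTGGTGGCAAaacacaac
Arhgef16, chr4:154301791-154301820, minus strand, gene on minus: cataatggCCTCAAGGGGTCAGcaacaagt

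These 4 are a selection. Of 15 genes named as higher, 10 had a match, 5 on the strand of the gene and 5 on the other. Of 15 genes named as lower, only 5 had a match, all on the strand of the gene. The last set comes from the strongest sites, at Timm22, which encodes a part of the mitochondrial inner membrane import machinery, and at the lincRNA Gm12052. Both have their match on the strand opposite to the gene.
Timm22, chr11:76406724-76406823, minus strand, gene on plus: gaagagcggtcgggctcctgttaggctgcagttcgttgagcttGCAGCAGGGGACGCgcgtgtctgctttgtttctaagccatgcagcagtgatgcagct
Gm12052, chr11:22617722-22617821, minus strand, gene on plus: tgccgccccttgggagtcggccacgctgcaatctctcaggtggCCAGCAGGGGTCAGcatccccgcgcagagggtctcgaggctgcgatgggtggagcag

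A match to the core motif stood within 50 bp of the summit at 474 of the 941 sites (50.4%, Wilson 95% interval 47.2 to 53.6). A match is a score above 9.777, the 95th percentile of windows 1 kb away, on either strand, for a matrix of 14 positions estimated on sites bound by both proteins. The share was 63.7% at the 2127 promoter sites shared with CTCFL and 57.3% at the 15209 CTCF-only sites away from promoters. It was 16.4% at the 3563 promoter sites bound by CTCFL alone, and 6.10% at all 75451 GENCODE start positions in windows of the same length. Among the matches, A stood at position 3 in 85.2%, against 55.4% at shared promoter sites and 90.3% at CTCF-only sites away from promoters. C stood at position 12 in 79.7%, against 91.2% at shared promoter sites and 78.7% away from promoters. The matches of the promoter sites thus resembled in both positions those of CTCF-only sites elsewhere in the genome, and a sequence window without a match holds only no such letters.

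In base composition the sites lay between the other classes. Over windows of 301 bp, the median GC content was 48.5%, and the observed to expected ratio of CpG had a median of 0.276. A GC content above 50% with a CpG ratio above 0.6 was found at 103 sites (10.9%), against 44.3% of shared promoter sites, 57.3% of CTCFL-only promoter sites, 0.789% of CTCF-only sites away from promoters and 31.6% of all start positions.

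The sites touched the starts of 999 annotated genes. These were 451 protein-coding genes, 132 lincRNAs, 112 processed pseudogenes, 67 antisense genes and smaller classes, and the nearest gene was protein-coding at 427 sites (45.4%). One gene start lay in reach at 882 sites, and starts on both strands at 50. Starts were those of every transcript in the GENCODE basic set, so a start could lie inside its gene. The distance between the middle and the start had a median of 399.5 bp, with 348 sites (37.0%) within 250 bp, and the middle was upstream of the start at 567 sites (60.3%). By annotation, 366 middles lay between genes, 337 in introns, 190 in exons and 48 in UTRs. At the limit of the window, the sites of Gm12538 at 999.5 bp and Gm22820 at 999 bp upstream were just inside, and those of Gm19817 at 1001 bp and Nfe2 at 1002 bp just outside.

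Peak strength, which chose the sites, is given as the lower −log10 q of the 2 replicates. It ran from 2.109 to 161.5 with a median of 17.75, close to the 17.92 of CTCF-only sites away from promoters and below the 40.25 of shared promoter sites. Median fold enrichment was 8.285 in replicate 1 and 7.237 in replicate 2. The strongest site, at −log10 q 161.5 and 168.1, lay 166 bp upstream of the lincRNA AC122818.2 and had no motif match.

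CTCF with endogenous CTCF still present bound nearly the same sites. In the FLAG ChIP-seq of CTCF in D, replicate 1 had a peak at 96.0% of the sites and replicate 2 at 98.4%, and 899 sites (95.5%, 94.0 to 96.7) held a site of both replicates. LCL, with the CTCF zinc fingers, had a site at 69.7% in D and 75.8% in ID, against 96.3% and 98.1% of shared promoter sites. CLC, with the CTCFL zinc fingers, had a site at 0.956% in D and 13.9% in ID, and at shared promoter sites the values were 34.7% and 86.5%. CLL had a site at 3.40% in ID and LLC at 0.956%, against 70.9% and 15.8% of shared promoter sites. LLC in ID held only 6621 sites in all. The transgenes with the zinc fingers of CTCF thus overlapped far more of the sites than those with the zinc fingers of CTCFL. This contrast is in part set by the choice, since the sites were picked for a CTCF ID site and no CTCFL D site. CTCF and LCL differ from the others in clone and in peak number too, and CLL and LLC also in the labelled time. With 2 replicates for each transgene, no exact test between a pair of transgenes can reach 0.05.

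The absence of CTCFL depended on which libraries are asked. CTCFL D replicate 1, with 49243 peaks, had a peak at 31.2% of the sites, and replicate 2, with 27971 peaks, at 1.17%. A peak of 1 of these replicates was found at 303 sites (32.2%). CTCFL in ID had a peak at 33.4% of the sites in replicate 1 and 26.6% in replicate 2, with a site of both at 23.7%. In all, 519 sites (55.2%) had no peak in any of the 4 CTCFL libraries. The share of CTCFL-bound sites is therefore a range set by the library, and the peak lists do not tell how deeply the ChIP libraries were read.

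**Figure D1:**
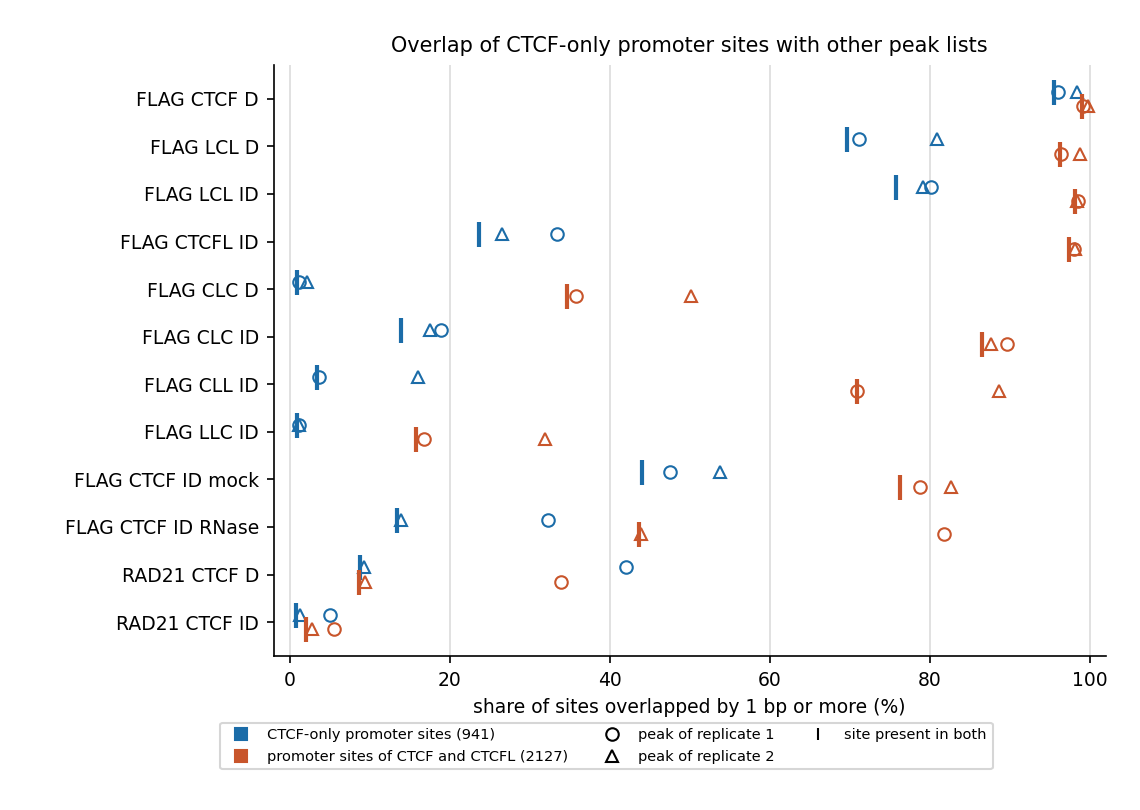
Share of sites (x axis, percent) overlapped by peaks of each FLAG or RAD21 list (y axis). Blue marks the 941 CTCF-only promoter sites and orange the 2127 promoter sites shared with CTCFL. Circles and triangles are peaks of replicates 1 and 2 and bars are sites of both replicates. CTCF D lies above 95% for both classes, while CLC ID lies at 13.9% for the blue and 86.5% for the orange class.

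RAD21, the cleaved ring subunit of cohesin, was found at a share of the sites that differed widely between the replicates. In CTCF D, replicate 1 (22765 peaks) overlapped 42.1% of the sites and replicate 2 (3756 peaks) 9.35%, and 83 sites (8.82%, 7.17 to 10.8) had a region in both. The same 3 values were 33.9%, 9.40% and 8.70% at shared promoter sites. In CTCF ID, with 8593 and 784 peaks, the shares were 4.99% and 1.28%. In the FLAG ChIP-seq of CTCF in ID after a mock treatment, 415 sites (44.1%) had a site again, and after RNase 126 (13.4%), of which 124 also had a mock site. The RNase replicates held 26051 and 8740 peaks, and their shares were 32.3% and 13.9%. The mock replicates held 24755 and 26415 peaks, with shares of 47.6% and 53.8%. At shared promoter sites the shares were 81.8% and 43.9% after RNase and 78.8% and 82.7% after mock. The part of peak number in the difference was not tested.

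Domain boundaries of untreated CTCF cells lay within 40 kb of 203 sites (21.6%, 19.1 to 24.3) in the first of the deposited domain lists, and of 277 (29.4%) in the second. For all start positions the values were 19.4% and 20.8%. In the first list, the share was 18.2% in I, 21.3% in D and 20.1% in ID, against 18.6%, 20.4% and 19.9% of all start positions. In the second it was 23.4%, 31.9% and 29.3%, against 19.0%, 21.1% and 20.1% of all start positions. That list also held fewer domains in I (2496) than in U (3041).

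Before the members' RNA, the gene that defines the groups was read. Ctcf itself had normalized counts (gene counts divided by a size factor of the library) of 4691 and 4712 in U, 4231 to 4622 in I, 3910 to 4142 in ID and 3550 to 3850 in D. Its RNA was not higher in the libraries labelled D and ID than in U. Degradation by IAA acts on the protein, so this RNA does not check the I label. Which part of Ctcf the table counts, and whether the transgene holds that part, is not given in the sources used here, so neither does it check the labels D and ID of the RNA libraries. The FLAG ChIP-seq libraries labelled ID, which are other samples, did hold CTCF peaks. In the RNA counts, the transgene and the endogenous gene cannot be told apart. The embryonic stem cell markers Pou5f1, Nanog, Sox2, Zfp42, Esrrb, Klf4 and Tfcp2l1 were high in all 11 libraries, with means from 6112 to 38618. Esrrb had a mean of 23508 in U and 9586 in I, and Sox2 one of 16014 in U and 7679 in I. Of 31 listed pluripotency genes, 10 were lower and 1 higher in I than U, by the call given below. In ID, 10 were lower than in U and none higher. The summed level of 25 early lineage genes ran from 15367 to 15398 in U, 17282 to 17744 in I and 14995 to 15834 in ID. The summed level of 14 fibroblast and blood markers ran from 3784 to 3820, 3435 to 3899 and 4862 to 5377, with 4, 1 and 5 of them at 0. Hbb-bs of red blood cells was at 0 in every group, and Dcn, Lum and Ptprc were at 0 in U and ID. Of the 14, 7 passed a mean of 10, so the list as a whole was not absent. The part of these shifts in the values below was not tested, and in bulk RNA fewer cells of a type and less RNA per cell cannot be told apart.

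Of the 999 genes, 875 were in the expression table by symbol, 668 had a value above 0 in the CTCF line, and 364 passed a mean of 10 and were tested. Among these, protein-coding genes numbered 315. The median level in U was 296.9 for these genes and 419.1 for all 16705 genes tested. A gene was called at an adjusted p under 0.01 and a log2 difference above 1 in limma, with p-values adjusted over all genes tested.

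More of these genes were lower than higher in I. Of the 364 genes, 40 (11%) were lower in I than in U, against 5.92% of all genes. Higher in I were 18 (4.95%), against 5.00% of all genes. The median log2 difference of the 364 genes was 0.017, and that of all genes 0.031. Genes at shared promoter sites were called lower in 11.5%, those at CTCFL-only promoter sites in 8.16% and genes with no such site at a start in 4.50%. The share is thus like that of shared promoter sites and not particular to CTCF-only ones.

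The libraries labelled ID did not return to U as a group. Of the 364 genes, 43 (11.8%) were lower in ID than in U, against 9.26% of all genes, and 20 (5.49%) were higher, against 5.59%. Against I, 11 (3.02%) were higher in ID, against 1.76% of all genes, and 16 (4.4%) were lower, against 3.30%. Of genes at shared promoter sites, 5.47% were higher in ID than I and 2.61% lower. The comparisons share libraries, so their values are set side by side without a test of one against another. The 40 genes lower in I had a median log2 difference of -1.82 for I against U and of -1.93 for ID against U. Of these 40, 27 (67.5%) were also called lower in ID than U, against 74.4% of all 989 genes lower in I.

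**Figure D2:**
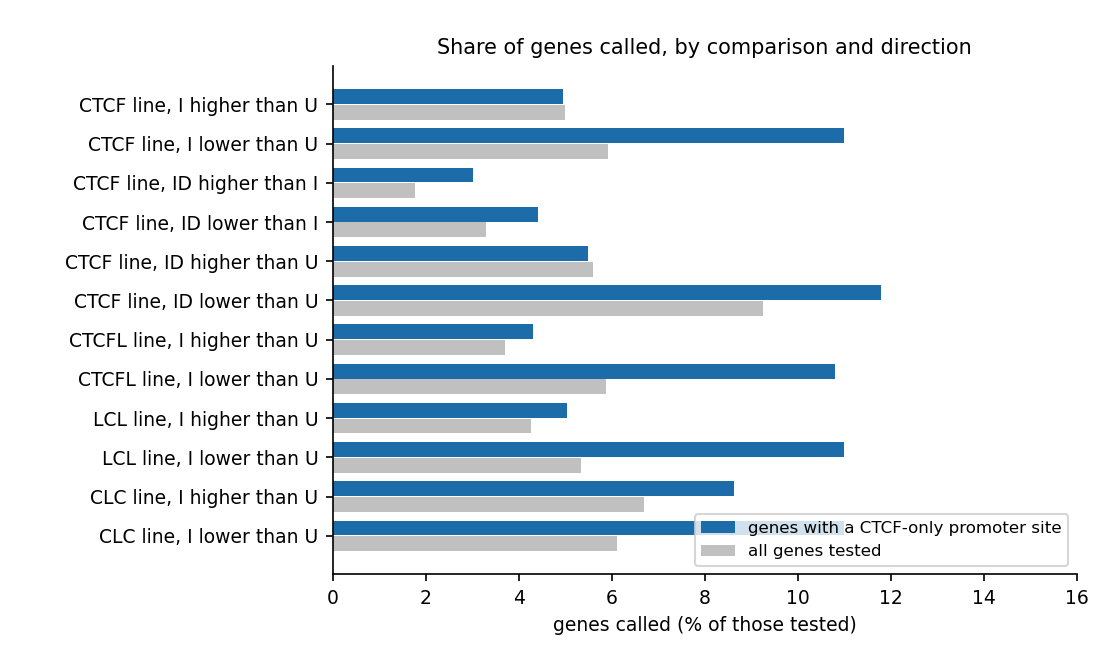
Percent of genes called (x axis) in each comparison and direction (y axis) at an adjusted p under 0.01 and a log2 difference above 1. Blue bars are genes with a CTCF-only promoter site and grey bars all genes tested. The blue bar for lower in I stands between 10.8% and 11% in the CTCF, CTCFL, LCL and CLC lines, the grey one between 5.34% and 6.10%.

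The same direction was seen in libraries that share no sample with the CTCF line. In the CTCFL line, 40 of 371 genes with a CTCF-only promoter site (10.8%) were lower in I than U, against 5.88% of all genes. The LCL line had 37 of 337 (11%), against 5.34%, and the CLC line 37 of 336 (11%), against 6.10%. Higher in I were 16 (4.31%), 17 (5.04%) and 29 (8.63%), against 3.69%, 4.25% and 6.70%. Of the 40 lower genes of the CTCF line, 36 were tested in all the other lines, and 23 of these were called lower in every one. The 3 called in none were 2810403D21Rik, Ccdc191 and G0s2, named here after their values were seen. Of the 18 higher genes, 7 of 17 were called higher in all the other lines, and the 4 called in none, likewise picked afterwards, were Erap1, Gm19412, Madcam1 and Rufy4. No gene was called in the opposite direction in any of the 3 lines. How often the calls of all genes recurred in the other lines was not worked out, so these counts are description only.

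The genes named as lower in I are given by what they are known to do, a grouping that was not tested. Elavl4, Scn3a and Mob3b had the largest fold changes. The Elavl4 site (chr4:110290833-110291223) lay in an intron, 756 bp upstream of a start inside the gene (chr4:110203722-110351909, minus strand). Scn3a, a voltage-gated sodium channel, had normalized counts of 134 and 172.3 in U, 1.94, 5.68 and 6.71 in I and 12.06, 9.39 and 6.05 in ID. Both U libraries were far above those of I and ID, and I and ID overlapped. In Dox alone (D) it had 73.68, 94.55 and 97.76, below U and above I and ID. Replicate 1 of the CTCFL D ChIP-seq had a peak at its site (−log10 q 3.872). The log2 difference was -4.84 ± 0.42 (SE) for I against U (limma adjusted p 9.78e-07) and 0.89 ± 0.37 for ID against I (adjusted p 0.0772). Elavl4, the neuronal RNA-binding protein HuD, stood at 58.5 and 63.0 in U, 0.97, 1.14 and 0.84 in I and 2.41, 0 and 1.51 in ID. With 3 reads in I against 112 in U, the ratio of U to I was 62.8 with an exact interval of 21 to 309 from counting error only.

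Of the kainate receptor subunit gene Grik4, U held 201 and 243, I 10.7, 18.2 and 18.4, and ID 24.1, 19.95 and 13.6. Its log2 difference for I against U was -3.77 ± 0.28 (adjusted p 2.67e-07). Dpp6, an auxiliary subunit of potassium channels, fell from 108.5 and 128.2 in U to 7.54 to 25.2 in I (-3.08 ± 0.40, adjusted p 3.55e-05). For Chrna7, a nicotinic acetylcholine receptor subunit, U held 84.0 and 119, I 12.6 to 15.9 and ID 24.6 to 31.4, with -2.70 ± 0.25 for I (adjusted p 2.14e-06). In all these genes U stood apart from I and ID without overlap, and I and ID overlapped in Grik4 and Dpp6 but not in Chrna7. Of the neuronal list, 2 of 40 genes had a CTCF-only promoter site, Elavl4 and Gad1, and both were lower in ID than U. In I Elavl4 was called lower and Gad1 was not (adjusted p 0.0118). Over the whole list, 7 of 30 tested genes were lower in I and 8 in ID.

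Clustered protocadherins, adhesion proteins of which a neuron picks few by promoter choice, held 28 of the 57 listed genes as members. Only 5 of these passed the minimum mean, and 4 of the 5 were lower in I than U (Pcdhga11, Pcdhgb4, Pcdhgb7 and Pcdhga12). In the whole list, members and others, 5 of 9 tested genes were lower. The gamma genes share their last exons, so reads there could be counted to more than one of them. Pcdhga11 had 39.4 and 72.9 in U, 2.90, 2.27 and 1.68 in I and 10.9, 22.3 and 24.2 in ID. None of its groups overlapped, and it was higher in ID than in I (log2 difference 2.56 ± 0.41, adjusted p 0.000291). The call of Pcdhgb4 in I was lost without either U library and that of Pcdhgb7 without replicate 2 of U, with adjusted p of up to 0.0296 and 0.0136. That of Pcdhga12 fell to a log2 difference of -0.96 without replicate 2 of U.

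Ttc7b, a scaffold of the complex that makes phosphatidylinositol phosphate at the membrane, was the most abundant of the 15 genes named, at 1614 and 1568 in U, 223.6, 180.6 and 217.1 in I and 127.8, 185.4 and 157.4 in ID. U stood apart, and I and ID overlapped. The log2 difference was -2.94 ± 0.16 for I (adjusted p 1.57e-08) and -3.35 ± 0.16 for ID against U (adjusted p 1.82e-09). Elmo1, which activates Rac together with DOCK proteins, had 325 and 372 in U, 31.01 to 53.2 in I and 13.3 to 21.1 in ID, and was lower in ID than in I too (-1.21 ± 0.21, adjusted p 0.000589). Its groups did not overlap. Arhgap42, Fer and Plekha5 were the others that went below I in ID, and they are named after their values were seen. Fhod3, a formin of muscle sarcomeres, stood at 518 and 524 in U, 62.9 to 82.9 in I and 36.2 to 62.1 in ID. Tmem163, a zinc transporter of synaptic vesicles, had 108.5 and 81.8 in U and 1.94 to 11.4 in I, with its motif match on its own strand as shown above.

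Cell cycle and repair genes were few. Cdk6, the kinase partner of D-type cyclins, was the only member of the replication and cell cycle list and had 235 and 285 in U, 52.3, 67.0 and 68.7 in I and 61.5, 43.4 and 46.9 in ID. U stood apart from both other groups, with -2.04 ± 0.19 for I (adjusted p 2.23e-06) and -2.35 ± 0.19 for ID. Of 4 DNA repair genes, Fancl, the ubiquitin ligase of the Fanconi anemia pathway, was called lower at 909 and 1095 in U, 475 to 502 in I and 350 to 406 in ID (-1.03 ± 0.10 for I, adjusted p 2.88e-06). Without replicate 2 of U its log2 difference was -0.90, inside the limit of 1. Fanci, its pathway partner, was at 1609 and 1695 in U and 1028 to 1194 in I, a log2 difference of -0.58 that did not reach the limit.

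Of the 40 genes lower in I, 10 (25%) were higher in ID than in I, against 13.2% of all 989 genes lower in I. They were Bdh2, C1ql4, Col27a1, Comtd1, G0s2, Gfm1, Mob3b, Pcdhga11, Tstd3 and Wfdc10, of which Col27a1 and Mob3b remained below U by the same call. Mob3b, of the MOB family of kinase activators, had 420.1 and 369 in U, 11.6, 18.2 and 15.9 in I and 79.6, 65.7 and 101.4 in ID. No groups overlapped, and the log2 difference was -4.62 ± 0.21 for I against U (adjusted p 4.55e-09), 2.36 ± 0.19 for ID against I (adjusted p 1.22e-06) and -2.27 ± 0.21 for ID against U (adjusted p 1.23e-06). The libraries labelled ID thus lay between I and U. Comtd1, a methyltransferase-like protein of mitochondria, had 425 and 305 in U, 41.6, 102.2 and 70.4 in I and 258, 286 and 268 in ID. Its ID libraries stood above I and just below U (2.00 ± 0.25 for ID against I, adjusted p 3.86e-05, and -0.41 ± 0.28 for ID against U, adjusted p 0.228).

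Col27a1, a fibrillar collagen of cartilage, rose from 12.6 to 24.99 in I to 75.7 to 77.4 in ID, with 171 and 221 in U. C1ql4, a secreted protein with a C1q domain, had 32.97 and 30.9 in U, 5.81 to 13.4 in I and 27.2 to 53.97 in ID, so that U and ID overlapped. Its call in I was lost without replicate 2 of I or either U library. Wfdc10, of the whey acidic protein family, had only 3 reads in I against 20 in U, a ratio of 11.2 (exact interval 3.33 to 59.0, counting error only). Its call was lost without replicate 2 of I or replicate 1 of U, with an adjusted p of up to 0.0635.

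**Figure D3:**
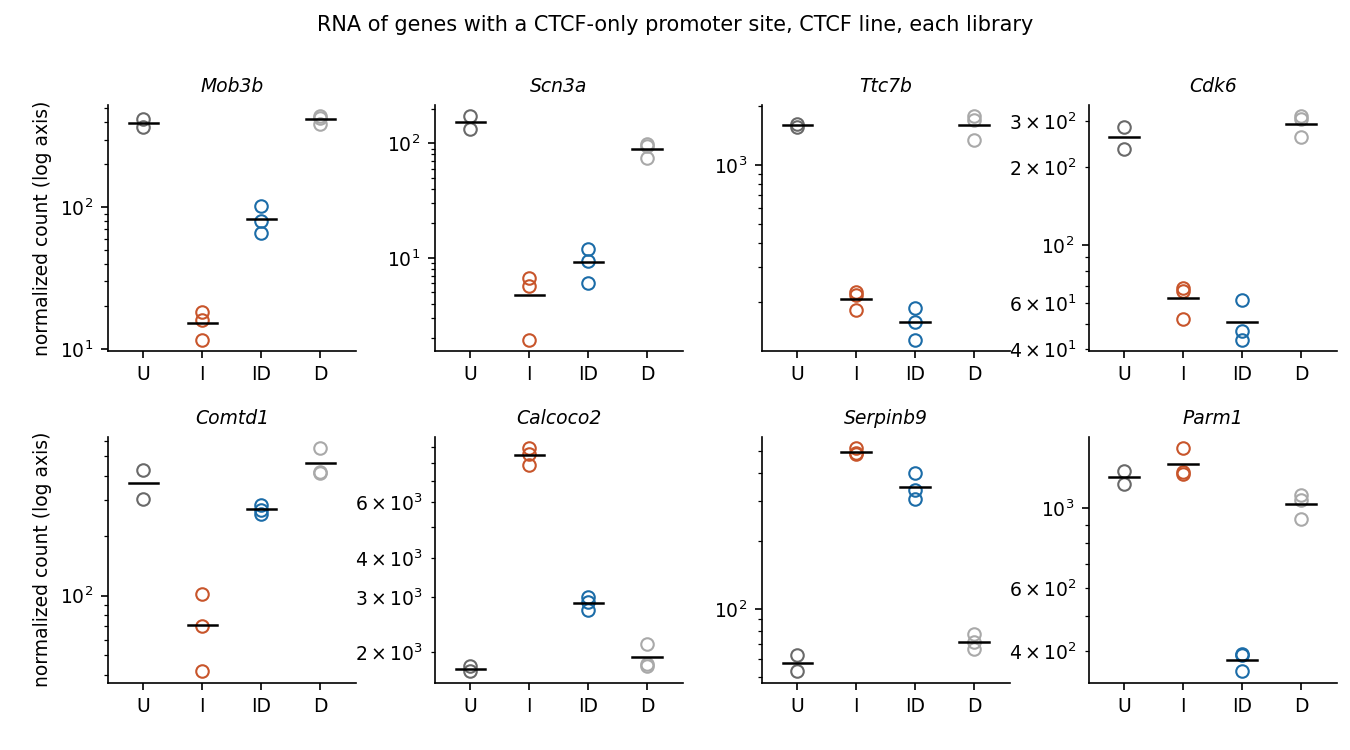
Normalized counts (y axis, log scale, each panel with its own range) of 8 genes with a CTCF-only promoter site in the 11 libraries of the CTCF line, by condition (x axis). Circles are libraries and lines are group means. Ttc7b, Cdk6 and Scn3a stay low in ID, Mob3b and Comtd1 rise again, Calcoco2 comes down, and Parm1 is low in ID alone.

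Of the genes higher in I than U, Serpinb9 had the largest fold change. Among the 15 named as higher, Serpinb9, Hsh2d, Upk2, Tnfrsf8, Madcam1 and Pip5kl1 had a peak of CTCFL D replicate 1 at their site. Replicate 2 had no peak there. Serpinb9, an inhibitor of granzyme B from a serpin family with close copies, had 62.7 and 53.03 in U, 489.8, 515.8 and 485.3 in I and 397.9, 335.6 and 307.2 in ID. None of the groups overlapped, and the log2 difference was 3.08 ± 0.15 for I (adjusted p 4.91e-09) and 2.56 ± 0.15 for ID against U (adjusted p 1.06e-08). Calcoco2, the autophagy receptor NDP52, had 1808 and 1742 in U, 7907, 8584 and 8948 in I and 2901, 2728 and 3013 in ID. Its groups were all apart, with 2.25 ± 0.085 for I (adjusted p 2.06e-09) and -1.56 ± 0.076 for ID against I (adjusted p 3.75e-08). Tnfrsf8, the receptor CD30, had 135 and 191 in U, 421.5 to 474 in I and 130.2 to 153 in ID, where U and ID overlapped. Hsh2d, an adaptor of blood cells, was the remaining gene of the 3 that were higher in I and lower again in ID, at 22.3 and 17.7 in U, 111 to 143 in I and 51.8 to 76.3 in ID. These 3 were 16.7% of the 18 higher genes, against 13.1% of all genes higher in I.

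Of the 18 genes higher in I, 10 were also higher in ID than in U. The others, not called in that comparison, were Calcoco2, Tnfrsf8, Arhgef16, Upk2, Rufy4, Zim1, Erap1 and Gm17322. The share over all genes higher in I was not worked out for the count of 10, so it is description only. Slc22a7, an organic anion transporter higher in both, had 179.7 and 191.1 in U, 450.1 to 488 in I and 497 to 566 in ID. Tcp11, a sperm protein, rose by 1.36 ± 0.15 in I on the log2 scale (adjusted p 7.53e-06), from 241 and 161 to 478 to 546. Arhgef16, a guanine nucleotide exchange factor, had 555.1 and 531.4 in U and 1117 to 1192 in I. Slc25a45, a mitochondrial carrier, had 27.7 and 19.9 in U and 95.4 to 98.7 in I, and Ceacam10, of a family with close copies, 23.4 and 28.7 in U and 63.6 to 70.7 in I. None of these overlapped between U and I. The calls of Upk2 and Rufy4 were lost without replicate 1 of U and those of Madcam1 and Pip5kl1 without replicate 2 of U, with adjusted p of 0.0127, 0.0208, 0.0194 and 0.0121. The imprinted gene Zim1 lost its call without any one of the 5 libraries, with an adjusted p of up to 0.0367. The Zim1 site lay in an intron, 244 bp upstream of a start inside the gene. Gm19412 is an antisense RNA, and whether counting used strand is not given in the sources used here.

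Some genes were called in ID without a call in I. Lower in ID than I were 9 of these (2.47% of the 364 genes, against 1.74% of all genes), of which the strongest was Parm1, a mucin-like membrane protein. It had 1169 and 1275 in U, 1475, 1246 and 1260 in I and 350.8, 389.5 and 392 in ID. U and I overlapped and ID stood below both, with -1.81 ± 0.09 for ID against I (adjusted p 4.35e-08) and -1.69 ± 0.10 for ID against U (adjusted p 1.52e-08). Cgnl1, a protein of cell junctions, had 627 and 686 in U, 987 to 1195 in I and 414 to 425 in ID. Mfsd4b3 was the only gene higher in ID than I without a call in I (0.275%, against 0.958% of all genes), and is named after its value was seen. Lower in ID than U without a call in I were 16 genes (4.4%, against 4.84%), Parm1, Gad1 and Rpgrip1l among them. Higher in ID than U without a call in I were 10 genes (2.75%, against 2.96%), among them Hoxc5 at 4.25 and 4.42 in U and 16.9 to 23.5 in ID, and the imprinted gene Mest at 177.6 and 105 in U and 247 to 294.5 in ID. The call of Hoxc5 was lost without either U library.

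Among the further lists, 8 cytosolic ribosomal protein genes had a CTCF-only promoter site and none was called in any of the 3 comparisons. Their libraries varied within groups, as in Rpl38 with 21119 and 9832 in U and 6319, 23213 and 24776 in I. Of 13 zinc finger protein genes, 1 was lower in ID than U (Zfp536, named after its value was seen). Neither the mitochondrial ribosomal gene Mrpl11 nor Lefty1, an inhibitor of Nodal and the tested early lineage member, was called. The lists of pluripotency genes, p53 targets, germline genes, heat shock genes, cohesin and boundary factors and fibroblast and blood markers held no member.

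The span of a gene, its length in the annotation, moved with the call. The 40 genes lower in I had a median span of 129 kb, and 24 of them (60%) were longer than 100 kb, while the 364 tested genes had a median of 24.4 kb. The 18 higher genes had a median of 12.3 kb, and none was over 100 kb. This held across the table, since all genes lower in I had a median of 151 kb (63.3% over 100 kb) and all higher genes 10.6 kb (2.22%). The limit of 100 kb was set after the data were seen.

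The shares are therefore given by span, beside those of all genes of the same span. Up to 100 kb, 16 of 304 (5.26%) were lower in I, against 2.48% of all genes of that span. Over 100 kb, 24 of 60 (40%) were lower, against 32.5%. In the CTCFL line the values were 3.88% against 1.62% and 45.2% against 38.4%, in LCL 6.05% against 2.69% and 35.7% against 25.7%, and in CLC 6.07% against 3.11% and 35.7% against 29%. For ID against U, the shares were 3.29% against 3.01% up to 100 kb and 55.0% against 58.0% above. Lower in ID than I were 1.97% against 1.45% up to 100 kb and 16.7% against 17.6% above. Higher in ID than I were 2.96% against 1.93% and 3.33% against 0.370%. These comparisons share libraries.

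The 10 genes lower in I and higher in ID than I had a median span of 16.5 kb and a median distance of 70.5 bp between site and start, but Mob3b (208 kb) and Col27a1 (121 kb) were long, and the sites of Col27a1 and C1ql4 lay 686.5 bp and 665.5 bp from the start. The other 30 had a median span of 171 kb and a median distance of 309 bp.

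**Figure D4:**
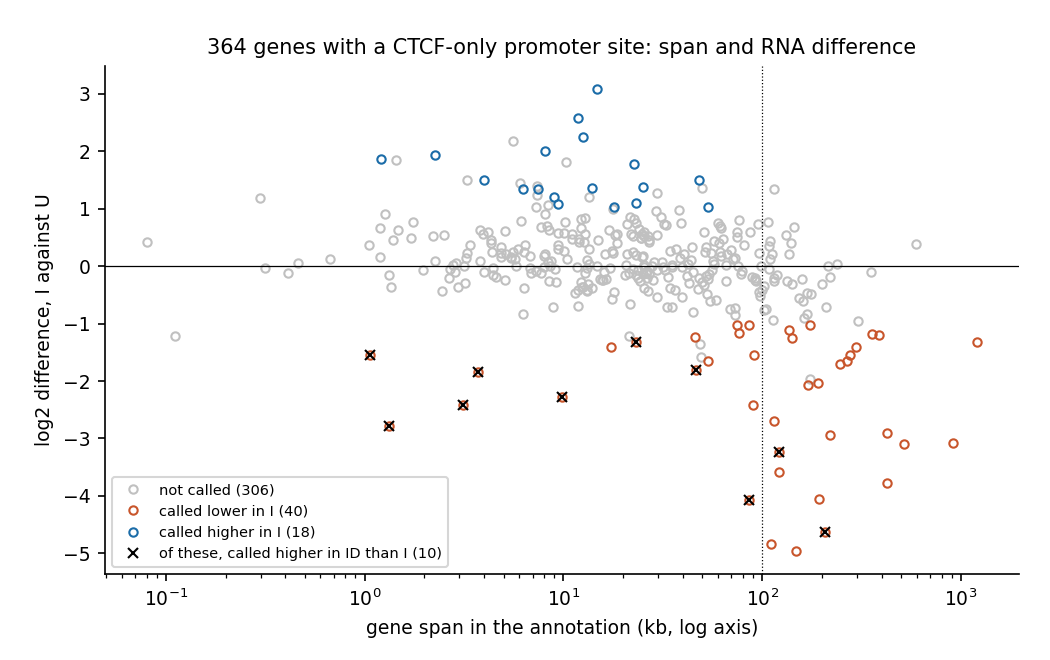
Log2 difference of I against U (y axis) by gene span (x axis, kb, log scale) for the 364 tested genes. Orange circles are the 40 called lower, blue the 18 called higher, grey the rest, crosses mark the 10 lower genes that were higher in ID than I, and the dotted line stands at 100 kb. All 18 blue circles lie left of the line and 24 of the 40 orange ones right of it.

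The direction of the motif match also moved with the call. Where the match lay on the strand of the gene, 17 of 104 genes (16.3%) were lower in I. Where it lay on the other strand, 2 of 74 (2.70%) were lower, Ccser1 and G0s2, named after their values were seen. Genes without a match stood between, with 21 of 186 (11.3%). The shares of higher genes were alike, at 6.73% and 6.76%. In the other lines the shares of lower genes were 17.2% and 1.49% (CTCFL), 16.5% and 1.49% (LCL) and 15.4% and 1.61% (CLC).

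These shares were read again in narrower sets. For spans up to 100 kb they were 8 of 80 (10%) and 1 of 67 (1.49%), and above 100 kb 9 of 24 (37.5%) and 1 of 7 (14.3%). For sites within 250 bp of the start they were 9 of 37 (24.3%) and 0 of 14, and beyond 250 bp 8 of 67 (11.9%) and 2 of 60 (3.33%). With matches above the 99th percentile of windows alone they were 5 of 46 (10.9%) and 1 of 42 (2.38%), and at starts on 1 strand only 12 of 85 (14.1%) and 2 of 67 (2.99%). At shared promoter sites the values were 81 of 626 (12.9%) and 29 of 412 (7.04%), and at CTCFL-only promoter sites 27 of 278 (9.71%) and 17 of 245 (6.94%). Over the alternatives of the RNA fit, the count of lower genes ran from 14 to 18 with a match on the strand of the gene and from 1 to 3 with a match on the other. The split by strand was made after the data were seen, and it is given with no test.

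**Figure D5:**
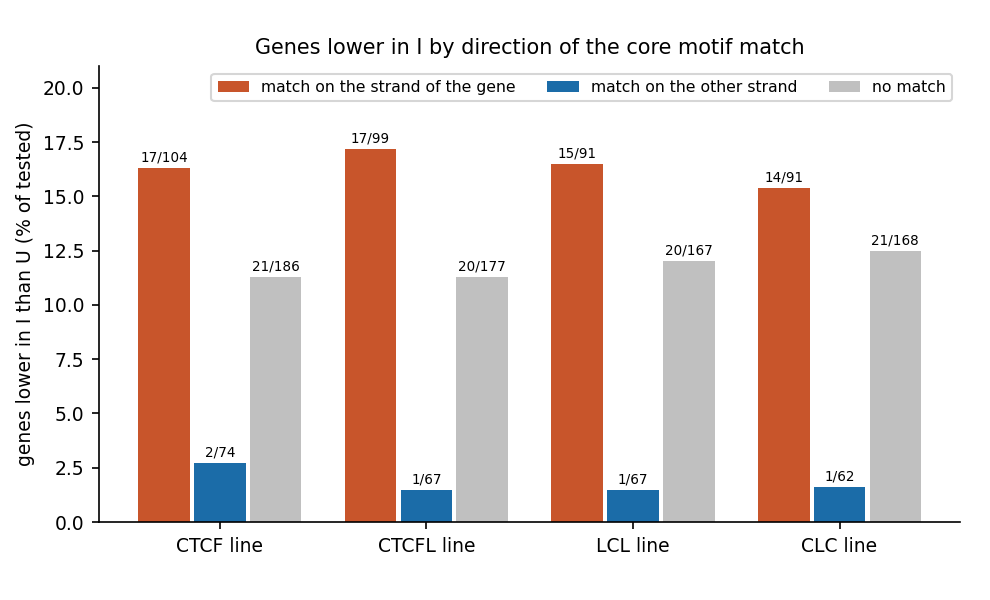
Percent of tested genes with a CTCF-only promoter site that were lower in I than U (y axis, from 0), by line (x axis) and by the strand of the core motif match. Orange bars are matches on the strand of the gene, blue on the other strand and grey no match, with counts above each bar. Orange bars run from 15.4% to 17.2% and blue bars from 1.49% to 2.70% over the 4 lines.

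Distance, cohesin, domain boundaries and base composition were read in the same way. Among genes with a site within 250 bp of the start, 20 of 131 (15.3%) were lower in I, and farther out 20 of 233 (8.58%). With a RAD21 peak in replicate 1 of CTCF D, 11.3% were lower, and 10.8% without. With a domain boundary of U within 40 kb, 6 of 70 (8.57%) were lower, and 34 of 294 (11.6%) without. Of 89 genes with a CpG-rich site, 12 (13.5%) were lower and none was higher, and of the other 275 genes 28 (10.2%) were lower and 18 (6.55%) higher.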

How the data were processed

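Deposited files of RNA-seq, FLAG and RAD21 ChIP-seq and Hi-C were used as the authors left them, and IgG samples and Hi-C of CLL were not analysed here. The RNA table holds normalized counts (a signal), which the authors made from reads aligned to GRCm38/mm10 with STAR v2.6 by dividing by 1 size factor per library; the counter is not given for this table in the sources used here, although HTSeq is among the tools in the submitters' processing notes, with Trim Galore 0.4.4 and SAMtools 1.3. Peak lists per replicate give the −log10 q values and the fold enrichment ratio over local background that the authors obtained with MACS after alignment with Bowtie2. FLAG lists start at −log10 q 2.0, those of CLL and LLC at 1.3. Domain lists give coordinates, with 2 lists per condition. Hi-C cells had 4 days of treatment by the protocol.

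Fits by limma 3.58.1 (R 4.3.3, trend on mean level) took log2(value + 1) of the table, 1 fit per line over U, I, D and ID, for genes with a mean of at least 10. A fold change on this scale understates the change of low genes. Nothing states that replicates came from separate cultures, so p-values measure the spread between these samples, which may be technical. Depth in the CTCF line ran from 16270957 to 28917040 reads per library, recovered from the steps of the values: 100% of values of up to 500 reads were whole within a tolerance of 0.1. On these reads edgeR 4.0.16 called 16 member genes higher and 43 lower in I. Intervals of shares are Wilson 95% intervals and cover counting error only. Tests were tested on simulated data with known changes.

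The members, gene lists and thresholds were chosen with earlier results of these data known. Named genes were the 15 largest differences in each direction among called members in I against U, the 5 largest in ID against I and in ID against U, the gene of each of the 10 strongest sites, up to 3 members of each list by level in U, and those at the window limit. Not every gene that the rule named is reported here. Replicate numbers did not pair libraries: of 15 same-numbered pairs, 3 correlated above 0.1 (range -0.297 to 0.162). Alternatives were other windows, overlaps, start sets, pseudocounts, filters, scalings, tools, the replicate block and single libraries left out.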

Additional observations from a re-analysis of the deposited data

Results flagged for a closer look

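One result met a rule for a closer look, the difference of the effect of IAA between lines for Rpgrip1l, which encodes a protein of the ciliary transition zone. In the CTCF line it had 194.6 and 205.5 in U, 244.9, 236.3 and 223.8 in I and 95.2, 96.2 and 90.8 in ID. I was above U without overlap, and ID was below both. The log2 difference of I against U was 0.231 in the CTCF line (adjusted p 0.245), -0.116 in CTCFL, -1.22 in LCL and -1.08 in CLC. The CTCF line exceeded the mean of the other lines by 1.04 on the log2 scale (SE 0.26, limma adjusted p 0.00959), in a fit over all 4 lines. Of the 364 tested genes with a CTCF-only promoter site, 3 (0.824%) had such a call, against 0.808% of all genes tested.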

How the results depend on the processing

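Counts are given in the order higher and lower in I than U, higher and lower in ID than I, and higher and lower in ID than U, for which the reported values were 18, 40, 11, 16, 20 and 43. A window of 3 kb gave 69, 95, 24, 47, 68 and 132 genes. One of 250 bp gave 5, 20, 7, 7, 6 and 18 of 131 tested genes, with 15.3% lower in I. Setting sites aside only where CTCFL overlapped above 66% of both sites gave 50, 146, 56, 38, 65 and 147. Sites without a peak in either CTCFL D replicate gave 10, 25, 6, 11, 13 and 23 of 213 tested genes, with 11.7% lower in I. Start sites of all annotated transcripts, added after the data were seen, gave 28, 66, 15, 31, 29 and 93. The sets of 3 kb, of the 66% overlap and of all annotated transcripts differ in size from the reported set. Their counts are given without the number tested and cannot be read as shares. A minimum mean of 50 left 7 genes higher in ID than I, and 1 fit over all 4 lines 13 higher in ID than U. The other alternatives kept each count within 1.5 times, edgeR with 16, 43, 11, 14, 17 and 44, DESeq2 with 20, 43, 12, 16, 20 and 44, and the replicate block with 18, 38, 10, 14, 19 and 41. With a single library left out, the ranges were 16 to 20, 31 to 40, 10 to 12, 12 to 19, 16 to 22 and 39 to 44.

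The number of sites was 2635 with 3 kb, 348 with 250 bp, 1942 with the 66% overlap, 1423 with CTCF D in place of ID and 438 with protein-coding starts alone. The share with a CTCF D site was 52.4% by a 66% overlap, and 96.0% to 98.4% in single replicates. For RAD21, single replicates gave 9.35% to 42.1%. Boundaries within 80 kb gave 40.4% and the second list 29.4%. Motif shares were 33.5% within 25 bp, 45.9% within 250 bp and 29% above the 99th percentile. Reversals came in genes without a call in I against U. With a single library left out, Eif3f (reported -0.00451) ran from -0.289 to 0.28 and turned without replicate 1 of I (0.186) or of U (0.28). Lig4 (0.0963) ran from -0.024 to 0.183 and turned without replicate 1 of I. Rpl38 (0.0935) ran from -0.458 to 0.735 and turned with the replicate block (-0.0976) and without replicates 2 and 3 of I or replicate 2 of U. The causes were not tested, and genes of few reads limit the fold changes named.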
